A study of Mus musculus with 8 samples.

Results

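Ribosome biogenesis and RNA polymerase I genes were examined in mouse oligodendrocyte progenitor cells (OPCs) and in the oligodendrocytes differentiated from them. The genes were taken by name from the deposited table. They were the subunits of RNA polymerase I named Polr1 and named factors that modify, cut and assemble ribosomal RNA. These factors included the Nop, Nol, Utp, Rrp, Noc, Imp, Tsr and Gnl genes. Also included were the proteins of the box C/D and box H/ACA particles, nucleolin (Ncl) and nucleophosmin (Npm1). The name search found 56 genes among 10987 listed transcripts. It used no measured value, but it was set with earlier results of these data known. Bop1, Heatr1, Nip7 and Wdr36 were also searched for, found no row and were not analysed here. Nol4l was found by its name alone, has no established role in ribosome biogenesis and is described separately.

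The cells were 129S/SvEv mouse cultures. OPCs had been derived from epiblast stem cells and were grown with bFGF and PDGFA, and oligodendrocytes were made from them in a medium with noggin, IGF-1, cyclic AMP, NT3 and thyroid hormone (T3). Each cell type had 2 cultures, collected after 3 days and each pooled from 6 dishes, and every culture gave one library of ribosome footprints (the mRNA pieces protected by ribosomes from micrococcal nuclease) and one of total RNA, 8 libraries in all. By the study's methods the oligodendrocytes were differentiated from these OPC replicates. Replicates of the same number were taken as pairs, which the labels do not state. The study states that differentiation is incomplete, so that some OPCs remain in the oligodendrocyte cultures.

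Ribosomes are built in the nucleolus. RNA polymerase I transcribes a long precursor that holds the 18S, 5.8S and 28S ribosomal RNAs, box C/D particles methylate it, box H/ACA particles convert uridines to pseudouridines, and a large assembly called the small subunit processome folds and cuts the part that becomes the 40S subunit. Other factors mature the 60S subunit, and the last steps of 40S maturation take place in the cytoplasm. The pathway is most active in growing and dividing cells. In the nervous system OPCs divide, whereas oligodendrocytes leave the cell cycle and spend their synthesis on myelin.

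Values are in FPKM, that is, fragments scaled by the length of the feature and by the number of fragments aligned in the library. Footprints were counted over the coding sequence and total RNA over the whole transcript. Depth estimated from the smallest steps of the values, taken as 1 aligned base, was 93.0 to 249 Mb of aligned bases for the footprint libraries and 77.9 to 241 Mb for the RNA-seq libraries, with oligodendrocyte replicate 2 the shallowest in both, and 9.48% to 31.1% of transcripts were listed at 0 in a library. For the median gene of the 56 this corresponds to an estimated 96.8 to 601 reads of 30 bases in a library. The oligodendrocyte label held against its markers: Cnp, an enzyme of myelin-forming cells, had RNA-seq values of 27.1 and 28.0 FPKM in OPCs and 1325 and 1118 in oligodendrocytes, and all 10 oligodendrocyte markers tested rose. However, none of 8 OPC markers tested fell and 4 rose, Pdgfra, C1ql1, Sox6 and Lhfpl3. Of these Pdgfra, the PDGF receptor that defines OPCs, rose from 53.5 and 31.3 to 105 and 101 FPKM (log2 fold change 1.33, adjusted p = 0.0158). Of 6 astrocyte markers tested 2 rose in RNA-seq: Gfap had 0.155 and 0 FPKM in OPCs and 14.2 and 2.11 in oligodendrocytes, and Slc1a2 had a log2 fold change of 1.79 (adjusted p = 0.00416). Of 6 neuron markers 2 rose, Dcx (1.85, adjusted p = 0.00367) and Tubb3 (1.45, adjusted p = 0.00867). Slc1a2, Dcx and Tubb3 rose in the footprints too. The part of these other cell types in the results was not tested.

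The first question was whether the RNA of these genes differs between the cell types. In the RNA-seq data 33 of the 56 genes fell in oligodendrocytes, 1 rose and 22 did not pass the threshold, an adjusted p under 0.05 from limma on log2(FPKM + 0.1). Among all 8346 transcripts tested, 20.2% fell and 13% rose. The median log2 fold change of the 56 genes was -1.08, against -0.23 over all transcripts tested. Of the 56 values 53 were negative, beside 5004 of the 8346 values of all transcripts. Expressed as percentages, 30 genes had a mean RNA-seq FPKM at least 50% lower in oligodendrocytes. The share of all transcripts with such a fall was not counted, so this number has no background beside it. The sum over the 56 genes was 2206 and 2504 FPKM in the OPC libraries and 1157 and 1227 FPKM in the oligodendrocyte libraries.

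The separation was visible without a test. In 47 genes both oligodendrocyte libraries lay below both OPC libraries, which was the case for 44.2% of all transcripts tested. In 2 genes both lay above, and in 7 genes the cell types overlapped. Of all 8346 transcripts tested, both lay above in 2303 and the cell types overlapped in 2358. In the plot of RNA-seq change by role, most points lie to the left of the median of all transcripts. The counts depended strongly on the libraries, and those without a culture are given at the end beside those of all transcripts. The median log2 fold change was -1.21 without OPC replicate 1, -0.89 without OPC replicate 2, -1.08 without oligodendrocyte replicate 1 and -0.99 without oligodendrocyte replicate 2. FPKM is a share of each library, so fewer cells of a type and less RNA per cell cannot be told apart, and neither can a change in the total RNA of a cell.

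**Figure D1:**
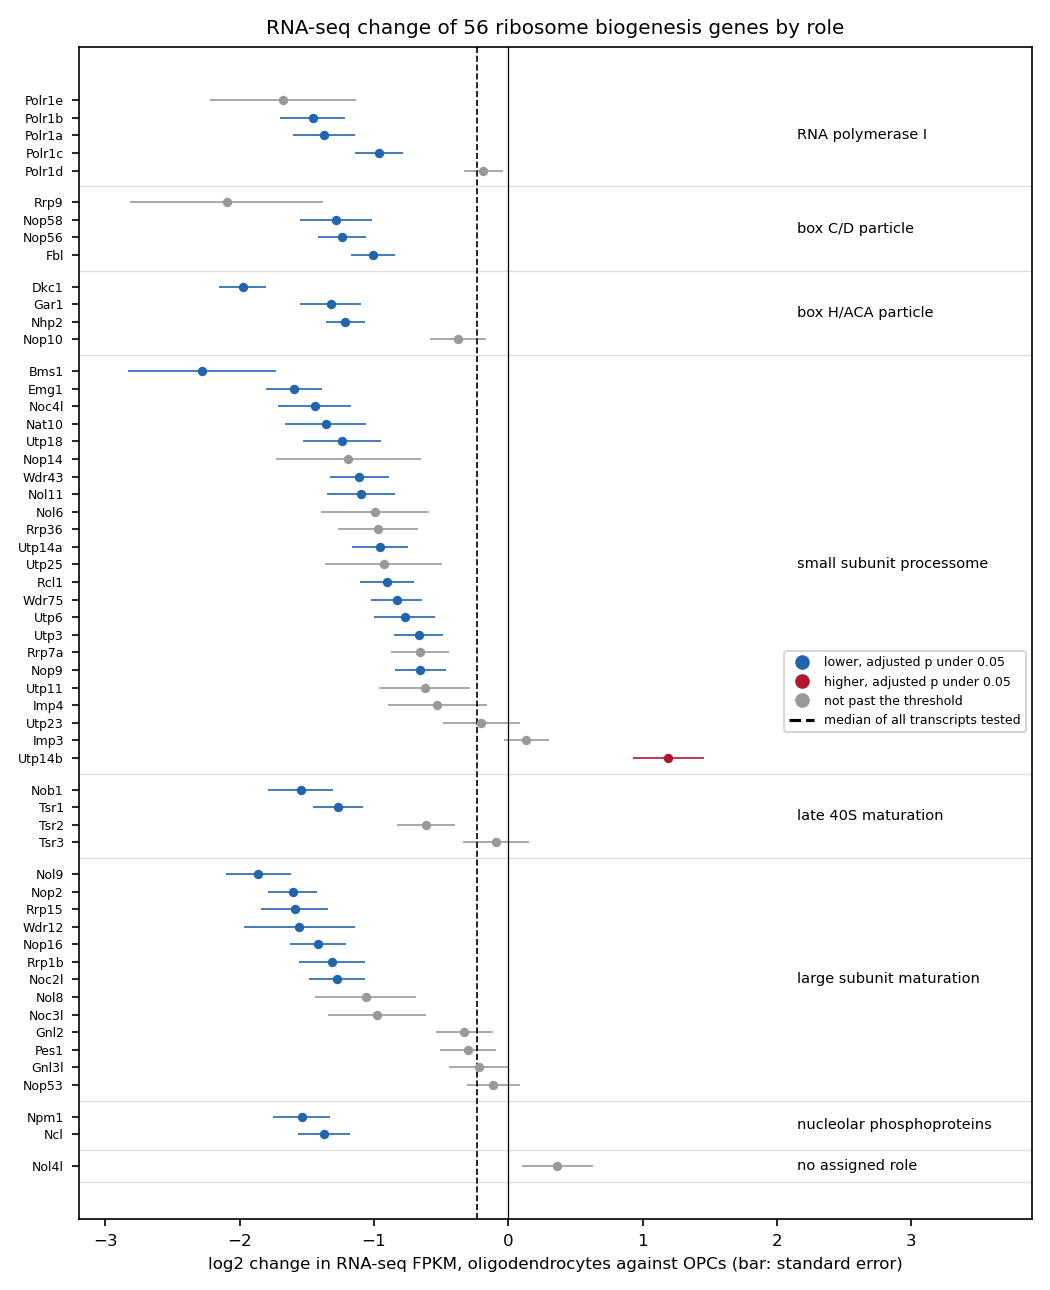
RNA-seq log2 fold change (horizontal axis, oligodendrocytes against OPCs) of each of the 56 genes, grouped by role, with the standard error as a bar and the median of all transcripts tested as a dashed line. Blue points mark the 33 genes that fell, the red point is Utp14b, the 1 gene that rose, and grey points did not pass the threshold.

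The RNA polymerase I subunits named Polr1 were mostly lower, with 3 of 5 past the threshold and a median log2 fold change of -1.37. Cd3eap (log2 fold change -1.35, adjusted p = 0.0518) and Znrd1 (-0.52, adjusted p = 0.149), counted with the further polymerase factors below, did not pass it. Polr1a, the largest subunit, had 15.2 and 16.0 FPKM in OPCs and 5.83 and 6.11 in oligodendrocytes (log2 fold change -1.37 ± 0.23, SE, adjusted p = 0.00876). Polr1b, which forms the active site together with Polr1a, had 18.2 and 21.8 FPKM in OPCs and 8.01 and 6.45 in oligodendrocytes (-1.46 ± 0.24, adjusted p = 0.00859). For both catalytic subunits every oligodendrocyte library was below every OPC library by more than the replicates differed. Polr1c, which is shared with RNA polymerase III, had 45.0 and 54.8 FPKM against 25.4 and 25.4 (-0.96 ± 0.18, adjusted p = 0.0120).

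The other 2 Polr1 subunits did not pass the threshold, for different patterns of values. Polr1d, also shared with RNA polymerase III, had 67.7 and 66.9 FPKM in OPCs and 57.4 and 61.1 in oligodendrocytes, a small difference (-0.18 ± 0.15, adjusted p = 0.371). Polr1e, a subunit particular to RNA polymerase I, had 11.3 and 15.5 FPKM in OPCs and 7.10 and 2.30 in oligodendrocytes, where the replicates lay far apart (-1.68 ± 0.55, adjusted p = 0.0617). With the replicate as a block, which uses that each oligodendrocyte culture came from one of the OPC cultures, Polr1e passed the threshold (adjusted p = 0.0271).

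The box C/D particle, whose methyltransferase is fibrillarin (Fbl), had 3 of 4 proteins past the threshold, all lower. Fbl itself had 92.4 and 81.1 FPKM in OPCs and 40.5 and 45.5 in oligodendrocytes (log2 fold change -1.01 ± 0.16, adjusted p = 0.00780). Its scaffold protein Nop56 had 107 and 106 FPKM against 39.9 and 51.1 (-1.24 ± 0.18, adjusted p = 0.00548). Nop58, the partner of Nop56, had 20.7 and 28.2 FPKM against 8.44 and 11.6 (-1.28 ± 0.27, adjusted p = 0.0176). For these 3 proteins the oligodendrocyte libraries lay below the OPC libraries by more than the replicates differed. Rrp9, which binds the U3 RNA that guides precursor cutting, had 34.7 and 36.1 FPKM in OPCs, 18.7 in oligodendrocyte replicate 1 and 3.57, about 14.7 reads, in replicate 2 (-2.10 ± 0.72, adjusted p = 0.0705, and 0.0128 with the replicate block). Reads of Fbl and Nop56 are uncertain, since 75.5% and 38.3% of their 30-base words also occur in transcripts of other genes, mostly in one copy each, Gm5812 and AC122861.1.

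The box H/ACA particle had 3 of 4 proteins past the threshold, and its pseudouridine synthase Dkc1, which also binds telomerase RNA, had the third lowest log2 fold change of the 56 genes. Dkc1 had 51.0 and 55.9 FPKM in OPCs and 14.1 and 12.9 in oligodendrocytes, a fall of 74.8% in the mean (log2 fold change -1.98 ± 0.18, adjusted p = 0.00148). Nhp2, an RNA-binding protein of the particle, had 196 and 183 FPKM against 78.0 and 85.1 (-1.21 ± 0.15, adjusted p = 0.00339). Gar1 had 17.9 and 21.3 FPKM against 8.07 and 7.44 (-1.32 ± 0.22, adjusted p = 0.00917). The replicates of these 3 genes were close and the cell types well apart. Nop10, the smallest protein of the particle, had 86.5 and 109 FPKM in OPCs and 65.2 and 85.9 in oligodendrocytes (-0.38 ± 0.21, adjusted p = 0.210), the oligodendrocyte libraries lying just below the OPC libraries.

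Ncl and Npm1, abundant nucleolar proteins that bind precursor RNA and ribosomal proteins, both fell. Npm1 was the highest of the 56 genes per length, with 338 and 445 FPKM in OPCs and 117 and 152 in oligodendrocytes (log2 fold change -1.54 ± 0.21, adjusted p = 0.00490). Ncl had 64.7 and 85.5 FPKM against 27.9 and 29.5 (-1.37 ± 0.19, adjusted p = 0.00523). Of the 30-base words of Npm1, 45.8% also occur in transcripts of 14 other genes, so its level is uncertain.

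**Figure D2:**
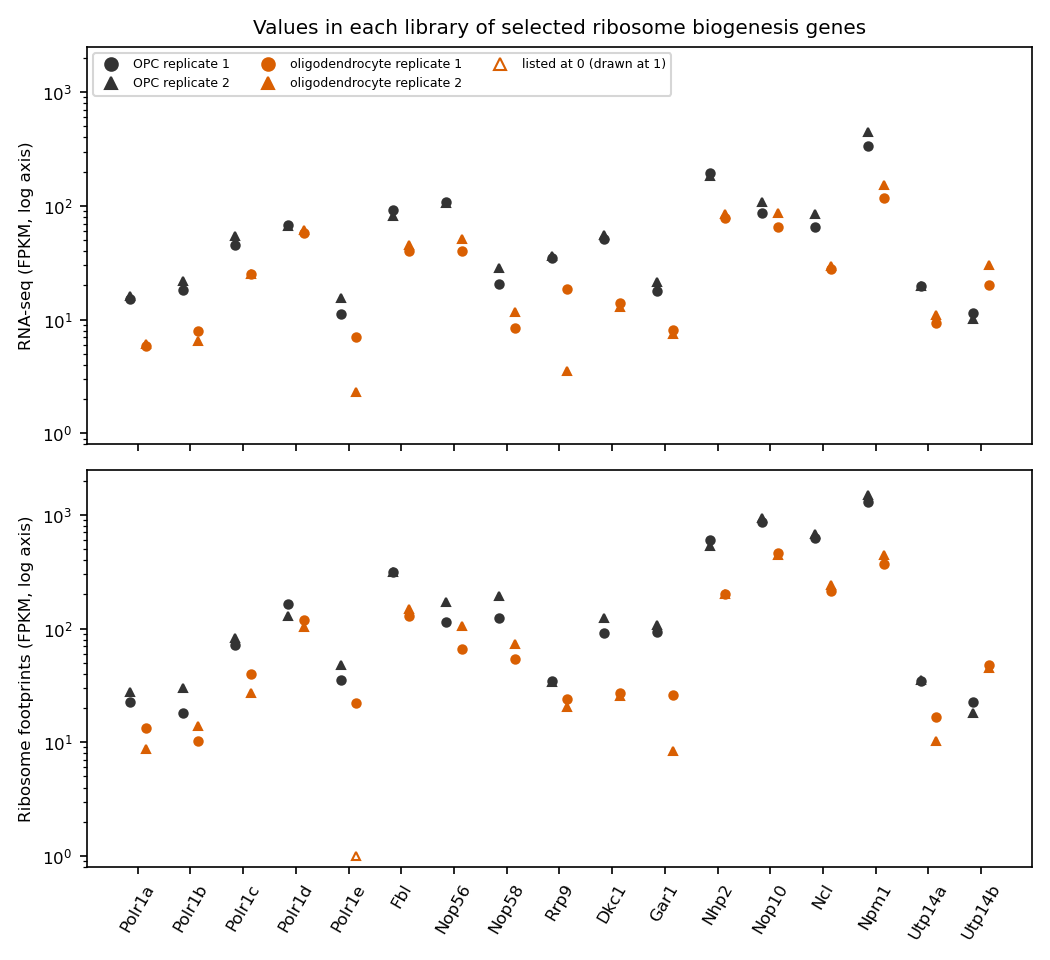
FPKM (log axis) of 17 genes in each library, RNA-seq above and ribosome footprints below, with OPC libraries in black, oligodendrocyte libraries in orange and the replicates as circles and triangles. The orange points lie below the black ones for most genes, above them for Utp14b, and the open triangle is Polr1e, listed at 0 in the footprints of oligodendrocyte replicate 2.

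The small subunit processome was the largest role, with 23 genes: 13 fell, 1 rose and 9 did not pass the threshold (median log2 fold change -0.93). Bms1, a GTPase of the processome, had the lowest value of all 56 genes, with 15.8 and 15.9 FPKM in OPCs and 5.73 and 1.74 in oligodendrocytes (log2 fold change -2.28 ± 0.55, adjusted p = 0.0263). The distance between its 2 oligodendrocyte libraries was larger than that between its OPC libraries. Emg1, which methylates a pseudouridine of 18S RNA, fell by 67.4% in the mean, from 112 and 160 FPKM to 42.3 and 46.3. Nat10, which acetylates 18S RNA, had 9.12 and 13.0 FPKM against 4.12 and 4.24 (-1.36 ± 0.30, adjusted p = 0.0205). The subunits that join the precursor first, Nol11, Wdr43 and Wdr75, all fell, with log2 fold changes of -1.10, -1.11 and -0.83. Noc4l, Utp18, Utp14a, Rcl1, Utp6, Utp3 and Nop9 fell as well, with values from -1.44 to -0.65.

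The 9 genes of the processome that did not pass were Nop14, Nol6, Rrp36, Utp25, Rrp7a, Utp11, Imp4, Utp23 and Imp3, with log2 fold changes from -1.19 to 0.13. Imp3, a U3-binding protein, had 99.5 and 81.4 FPKM in OPCs and 94.97 and 103 in oligodendrocytes, which overlap (log2 fold change 0.13 ± 0.17, adjusted p = 0.568). Its partner Imp4 had 9.48 and 7.27 FPKM against 7.61 and 4.31 (-0.53 ± 0.37, adjusted p = 0.309), also overlapping. Utp23 had 8.83 and 10.3 FPKM against 6.92 and 9.89, again with overlap. Imp3 shares 17.99% of its 30-base words with 4933427G23Rik.

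The last steps of 40S maturation gave 2 genes that fell and 2 that did not pass. Nob1, the endonuclease that makes the final end of 18S RNA, had 20.1 and 24.5 FPKM in OPCs and 8.42 and 6.72 in oligodendrocytes (log2 fold change -1.55 ± 0.24, adjusted p = 0.00706). Tsr1 had 34.7 and 41.0 FPKM against 15.7 and 15.5 (-1.27 ± 0.19, adjusted p = 0.00589). Both were separated by more than the spread of the replicates. Tsr2, which escorts a ribosomal protein to the 40S subunit, had 17.0 and 15.4 FPKM against 11.0 and 10.1 (-0.61 ± 0.21, adjusted p = 0.0737). Tsr3, which modifies a base of 18S RNA, had 31.5 and 21.7 FPKM against 27.3 and 22.1 (-0.09 ± 0.25, adjusted p = 0.797).

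Of 13 factors of the large subunit, 7 fell and 6 did not pass the threshold (median log2 fold change -1.27). Nol9, a kinase that acts on the precursor of 28S RNA, had 23.2 and 24.1 FPKM in OPCs and 7.43 and 5.55 in oligodendrocytes (-1.86 ± 0.24, adjusted p = 0.00419). Nop2, a methyltransferase of 28S RNA, Rrp15, Nop16, Rrp1b and Noc2l fell with log2 fold changes between -1.60 and -1.27. Nol8 and Noc3l had -1.06 and -0.98 without passing, and the GTPases Gnl2 and Gnl3l had -0.33 and -0.22. The PeBoW complex, which Wdr12 and Pes1 form with Bop1, was unequal in its listed proteins. Wdr12 had 4.85 and 7.79 FPKM in OPCs and 2.30 and 1.78 in oligodendrocytes (-1.56 ± 0.41, adjusted p = 0.0347), whereas Pes1 had 33.8 and 35.1 FPKM against 23.9 and 32.6 (-0.30 ± 0.21, adjusted p = 0.302). The difference between Wdr12 and Pes1 was not tested, and both levels are uncertain, since 32.7% of the 30-base words of Pes1, most of them in Gm5910, and 14.5% of those of Wdr12 also occur in transcripts of other genes. Nop53, which recruits the exosome to the precursor of 5.8S RNA, overlapped between the cell types, with 23.7 and 23.6 FPKM against 19.6 and 24.4 (-0.11 ± 0.20, adjusted p = 0.681), and 15.1% of its words are shared.

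Utp14b was the only gene of the 56 that rose. It had 11.4 and 10.2 FPKM in OPCs and 20.1 and 30.4 in oligodendrocytes (log2 fold change 1.19 ± 0.26, adjusted p = 0.0204), and in the footprints 22.6 and 17.99 FPKM against 47.8 and 45.1 (1.199 ± 0.20, adjusted p = 0.0248). Utp14a (chrX:48256862-48282453, plus strand, 15 exons), the X-linked copy with the same place in the processome, went the other way, with 19.8 and 19.6 FPKM in OPCs and 9.33 and 11.0 in oligodendrocytes (-0.96 ± 0.21, adjusted p = 0.0204). The 2 coding sequences were identical at 77.9% of the aligned bases and shared 1 of 2272 words of 30 bases, so few reads fit both. The stretches below, from the GRCm38 coding sequences, show how far the copies differ, with the 11 mismatched bases in capitals.
Utp14a, coding bases 25 to 84: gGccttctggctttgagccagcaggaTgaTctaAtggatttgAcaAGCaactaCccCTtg
Utp14b, coding bases 97 to 156: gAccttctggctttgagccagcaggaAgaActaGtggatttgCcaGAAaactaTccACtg
Utp14b (chr1:78658038-78671512, GRCm38, plus strand, 3 exons) lies inside another gene, Acsl3, on the same strand, and 244 of its exon bases are also exon bases of Acsl3. Acsl3, an enzyme that activates fatty acids, rose as well, from 50.7 and 39.5 to 125 and 141 FPKM (log2 fold change 1.57, adjusted p = 0.00321), and its part in the values of Utp14b was not tested. For another 19 of the 56 genes, exons coincide in part with those of a gene read from the other strand.

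Nol4l had 10.9 and 9.30 FPKM in OPCs and 15.3 and 11.0 in oligodendrocytes (log2 fold change 0.37 ± 0.26, adjusted p = 0.323). It was the only gene besides Utp14b with both oligodendrocyte libraries above both OPC libraries in RNA-seq, although its replicate 2 lay close to the OPC values.

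The footprint libraries ask the same of the ribosomes on these mRNAs. In the footprints 21 of the 56 genes fell, 1 rose and 34 did not pass the threshold, where 10.8% of all 8342 transcripts tested fell and 12.8% rose. Both oligodendrocyte libraries lay below both OPC libraries in 46 genes, against 37.9% of all transcripts tested. The median log2 fold change was -0.94, or -0.89 over the 53 genes above 0 in every footprint library, against -0.16 over all transcripts tested. The sum over the 56 genes was 6801 and 7462 FPKM in OPCs and 3441 and 3353 in oligodendrocytes. The median was -1.16 without OPC replicate 1, -0.77 without OPC replicate 2, -1.04 without oligodendrocyte replicate 1 and -0.85 without oligodendrocyte replicate 2. Such fits leave a single library in a group, and their counts, which vary widely, are given at the end beside those of all transcripts. A fit without a trend in the variance called 8 of the genes lower, and 1036 transcripts in all.

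All 4 box H/ACA proteins fell in the footprints. Dkc1 had 90.7 and 124 footprint FPKM in OPCs and 26.97 and 25.5 in oligodendrocytes (log2 fold change -2.01 ± 0.20, adjusted p = 0.00968). Nhp2 had 604 and 531 FPKM against 202 and 203 (-1.48 ± 0.12, adjusted p = 0.00696), and Nop10 had 860 and 940 against 460 and 442 (-0.99 ± 0.11, adjusted p = 0.0113). All 3 were far apart between the cell types beside the spread of the replicates. Gar1 had 92.4 and 107 FPKM in OPCs, 26.0 in oligodendrocyte replicate 1 and 8.33 in replicate 2 (-2.74 ± 0.59, adjusted p = 0.0433).

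Npm1 and Ncl also both fell in the footprints, Npm1 from 1300 and 1505 to 369 and 447 FPKM (log2 fold change -1.78 ± 0.16, adjusted p = 0.00791) and Ncl from 629 and 674 to 212 and 243 FPKM (-1.52 ± 0.12, adjusted p = 0.00711). Of the box C/D proteins, Fbl fell from 317 and 316 to 129 and 150 FPKM (-1.18 ± 0.12, adjusted p = 0.00997) and Nop58 from 124 and 194 to 54.1 and 73.4 FPKM (-1.30 ± 0.29, adjusted p = 0.0476). Both methylation proteins were lower in every oligodendrocyte library. Nop56 had 114 and 171 FPKM against 66.3 and 106, with an adjusted p of 0.190 that became 0.0291 with the replicate block. Rrp9 had 34.6 and 33.9 FPKM against 24.0 and 20.6 (-0.62 ± 0.19, adjusted p = 0.0885), without the low value that its RNA had in oligodendrocyte replicate 2.

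In RNA polymerase I the footprints of Polr1c fell, with 71.3 and 82.0 FPKM in OPCs and 39.9 and 27.3 in oligodendrocytes (log2 fold change -1.21 ± 0.24, adjusted p = 0.0369, and 0.0547 with the replicate block). Polr1a had 22.8 and 27.9 FPKM against 13.4 and 8.68 (-1.22 ± 0.33, adjusted p = 0.0709), and Polr1b had 18.1 and 30.3 against 10.3 and 13.8 (-0.97 ± 0.37, adjusted p = 0.148). Polr1d had 164 and 128 FPKM against 120.0 and 103 (-0.38 ± 0.18, adjusted p = 0.207). All 5 Polr1 subunits had both oligodendrocyte libraries below both OPC libraries in the footprints too, though only Polr1c passed the threshold.

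Polr1e, Rrp15 and Nop16 were listed at 0 in the footprints of oligodendrocyte replicate 2, so no fold is given. Polr1e had 35.1 and 48.0 FPKM in OPCs and 22.0 and 0 in oligodendrocytes. Rrp15 had 50.9 and 55.0 against 13.1 and 0, and Nop16 had 119 and 121 against 50.5 and 0. At the level of replicate 1 the depth of that library would give 2664, 1028 and 2522 aligned bases for the 3 genes, and a listed 0 can be a failed estimate. The RNA of the 3 genes was above 0 in the same culture.

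Fewer genes of the processome passed in the footprints than in RNA-seq: 6 of 23 fell (Bms1, Emg1, Nol11, Utp3, Utp14a and Utp23), Utp14b rose, and with the replicate block 2 fell. The share of all transcripts tested that fell was also lower in the footprints, 10.8% against 20.2% in RNA-seq. The smaller number is thus not particular to the processome. Emg1 had 152 and 138 footprint FPKM in OPCs and 46.5 and 31.2 in oligodendrocytes (log2 fold change -1.92 ± 0.24, adjusted p = 0.0137). Bms1 had 16.5 and 21.0 FPKM against 6.68 and 7.02 (-1.43 ± 0.31, adjusted p = 0.0434, and 0.0857 with the replicate block). Imp3 again overlapped, with 326 and 290 FPKM against 310 and 343. Nop14, Nol6 and Utp6 had log2 fold changes of -0.08, -0.07 and -0.24 in the footprints, beside -1.19, -0.99 and -0.77 in RNA-seq.

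Of the later factors, Nob1 and Tsr1 fell in the footprints (log2 fold changes -1.50 and -1.69, adjusted p = 0.0299 and 0.0290), and neither passed with the replicate block (0.0528 and 0.0514). In the large subunit group Nol9, Nop2, Noc2l and Nop53 fell. Nop53 had 88.7 and 79.5 footprint FPKM in OPCs and 53.6 and 40.4 in oligodendrocytes (-0.85 ± 0.20, adjusted p = 0.0488), while its RNA overlapped. Wdr12 had 38.6 and 53.2 FPKM against 20.2 and 28.7 (-0.91 ± 0.29, adjusted p = 0.0962), and Pes1 had 102 and 119 against 83.2 and 96.4 (-0.30 ± 0.15, adjusted p = 0.237). Nol4l had 24.3 and 19.3 FPKM against 40.6 and 37.3 (0.84 ± 0.21, adjusted p = 0.0574).

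The RNA-seq and footprint libraries came from the same cultures. Both measures called 18 genes lower, which is 54.5% of the 33 genes lower in RNA-seq and 85.7% of the 21 lower in footprints. Of the 53 genes above 0 in all libraries, 38 had log2 fold changes in the 2 measures within 0.5 of each other. The shares of all transcripts that were called lower in both measures, or lay within 0.5, were not counted. These numbers therefore only describe the genes. In the plot of footprint against RNA-seq change the 53 genes lie along the diagonal, with Gar1 and Rrp1b well under it and Rrp9 and Nop14 above it. Rrp1b had 15.6 and 22.9 footprint FPKM in OPCs, 6.68 in oligodendrocyte replicate 1 and 0.796 in replicate 2, the last resting on about 5.37 reads.

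**Figure D3:**
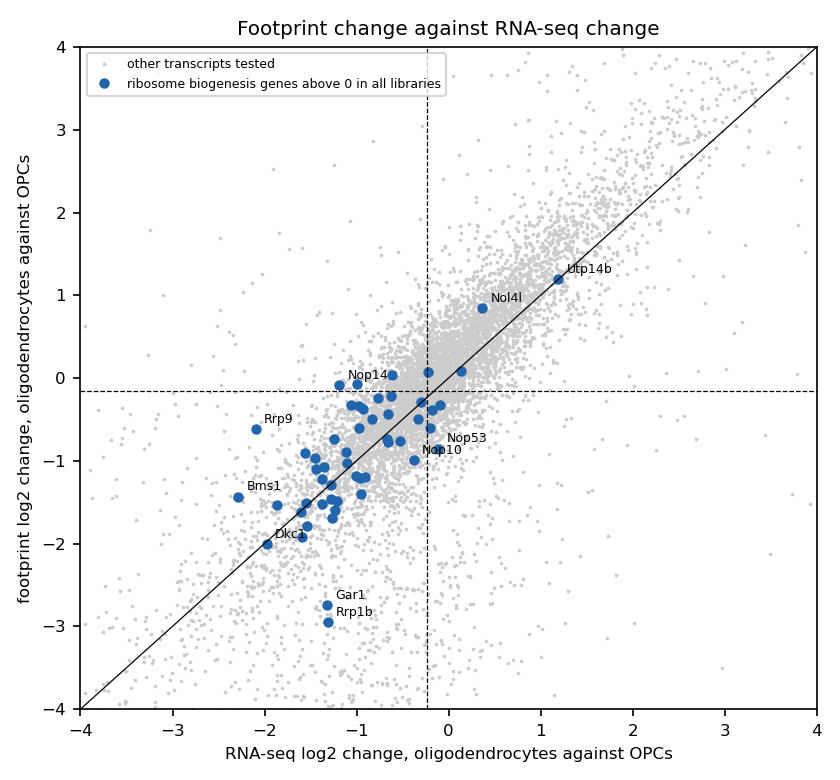
Footprint log2 fold change (vertical axis) against RNA-seq log2 fold change (horizontal axis), oligodendrocytes against OPCs, for the 53 genes above 0 in all libraries (blue) over the other transcripts tested (grey; a few beyond the axes are not drawn). The solid line marks equal change, the dashed lines the medians of all transcripts, -0.23 and -0.16, and most blue points lie in the lower left.

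Ribosome density, the ratio of footprint to RNA-seq FPKM in a culture, asks whether ribosomes per mRNA changed. None of the 56 genes passed the threshold in the limma interaction fit over the 8 libraries, where 0.0124% of 8056 transcripts did. At an unadjusted p under 0.05 there were 2 (3.57%), no larger a share than the 387 (4.80%) of all transcripts tested. They were Nop10 (log2 change of density -0.62 ± 0.25) and Nop53 (-0.74 ± 0.27), both with an adjusted p of 0.875 in limma. The median log2 change of density was -0.02 against 0.10 over all transcripts tested. Within pairs the median ratio of oligodendrocyte to OPC density was 1.12 in replicate 1 and 0.922 in replicate 2. The standard errors of single genes were wide, for example 0.40 for Polr1a and 0.46 for Polr1b, so a change of density of that size was not detectable here. Without oligodendrocyte replicate 1 the fit called 5 of the genes lower and 2 higher, and 883 transcripts in all.

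The density itself was somewhat above that of other transcripts. The median over the genes was 2.18 and 2.08 in OPCs and 2.41 and 2.35 in oligodendrocytes, against 1.72 and 1.77, and 2.02 and 1.95, over all transcripts. Nop10 had densities of 9.95 and 8.6 in OPCs and 7.06 and 5.15 in oligodendrocytes, and Gar1 had 5.17 and 4.99 against 3.22 and 1.12, both lower in each oligodendrocyte culture. At the low end Emg1 had 1.36 and 0.863 in OPCs and 1.10 and 0.674 in oligodendrocytes, which overlap.

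Among the highest densities were some genes with a long annotated transcript, though long transcripts did not all have a high density. Ncl had 9.71 and 7.87 in OPCs and 7.60 and 8.25 in oligodendrocytes, Wdr12 had 7.96 and 6.84 against 8.77 and 16.2, and Nop58 had 5.97 and 6.87 against 6.41 and 6.34. Their annotated transcripts are 8202, 10012 and 9507 bases long, beside coding sequences of 2121, 1269 and 1608 bases. RNA-seq FPKM is divided by the whole transcript length and footprint FPKM by the coding length, and the part of these lengths in the densities was not tested.

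**Figure D4:**
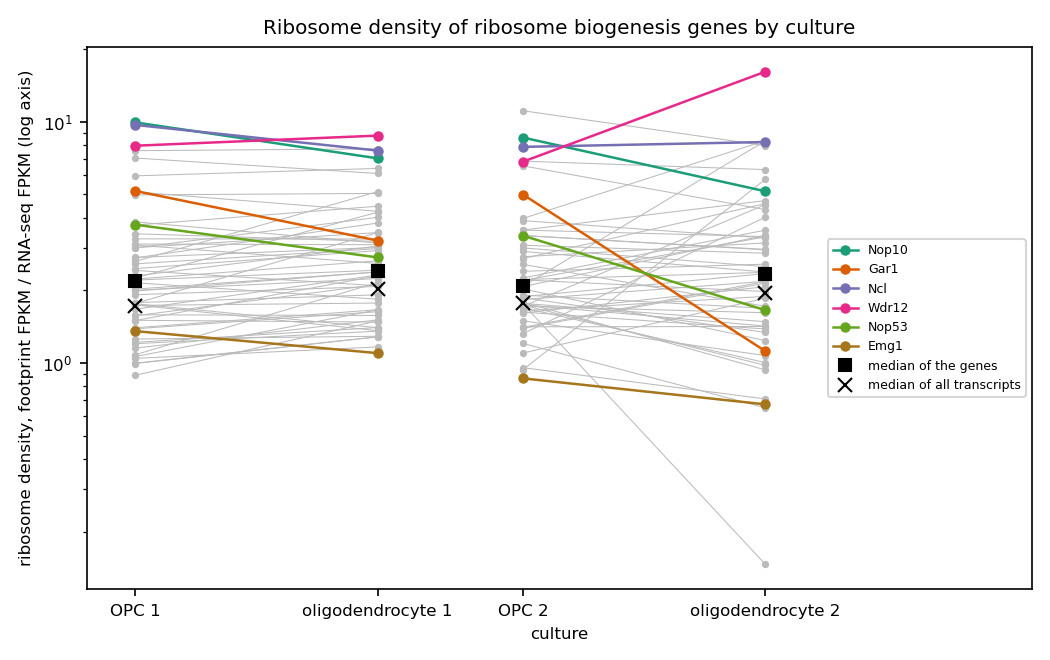
Ribosome density (vertical log axis) of the genes in each OPC culture and the oligodendrocyte culture of the same number, joined by a line, with 6 genes in colour, black squares for the median of the genes and crosses for the median of all transcripts. The squares sit above the crosses in all 4 cultures, and Nop10, Gar1 and Nop53 slope down in both pairs; genes listed at 0 in a culture are not drawn there.

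Other genes of the pathway that the name search does not reach were counted from lists of names, also set with earlier results known. The counts are to be read against the 20.2% of all transcripts that fell in RNA-seq. Of 9 further RNA polymerase I factors 4 (44.4%) fell in RNA-seq and none rose (median log2 fold change -0.85): Tcof1, treacle, had -2.01 (adjusted p = 0.0104), Mybbp1a -1.18 (0.00792), and Ubtf, the factor that holds ribosomal genes open, had 40.1 and 53.5 FPKM against 20.9 and 22.7 (-1.08, 0.0128). Of 15 further 40S factors 8 (53.3%) fell (median -1.06), among them Lyar (-2.16, adjusted p = 0.00169) and Wdr3 (-1.49, 0.0257), and Kri1, which had 6.09 and 2.73 FPKM in OPCs and 0 and 0.310 in oligodendrocytes. Of 27 further 60S factors 22 (81.5%) fell (median -1.04), with Rpf1 (-2.91, adjusted p = 0.00322), Ftsj3 (-2.25, 0.00432) and Sdad1 (-1.67, 0.0195) lowest. Of 14 nucleolar helicases 6 (42.9%) fell (median -0.70), with Ddx31 (-2.12, adjusted p = 0.0403), Ddx18 (-1.51, 0.0138) and Ddx56 (-0.95, 0.02) lowest. Of 10 exosome genes 2 (20%) passed, Exosc3 (-1.15, adjusted p = 0.0143) and Exosc7 (-0.95, 0.0171), a share near that of all transcripts (median -0.60). With the replicate block the numbers that fell were 6, 9, 21, 7 and 3 in the order of these lists. In the footprints 10.8% of all transcripts tested fell. There the numbers in the same order were 4 (44.4%), 2 (13.3%), 12 (44.4%), 3 (21.4%) and 5 (50%). With the replicate block the footprint numbers were 2, 3, 11, 1 and 3. The 60S factor Sbds rose in the footprints (log2 fold change 1.27, adjusted p = 0.00943).

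Myc, a transcription factor known to drive ribosome biogenesis genes, had 68.7 and 63.1 FPKM in OPCs and 41.7 and 53.2 in oligodendrocytes (log2 fold change -0.48, adjusted p = 0.0939), and fell in the footprints (-0.85, adjusted p = 0.0159). Of 8 genes of the Myc network 2 rose and 1 fell in RNA-seq, where 13% and 20.2% of all transcripts tested did. Mycl rose from 7.61 and 7.28 to 66.1 and 72.4 FPKM (3.20, adjusted p = 0.000487). Mxd4, which competes with Myc for its partner, rose from 19.8 and 23.8 to 60.7 and 59.9 FPKM (1.47, adjusted p = 0.00330), and Mxd3 fell from 22.6 and 21.0 to 8.11 and 5.19 FPKM (-1.73, adjusted p = 0.00815). In the footprints 3 of the 8 rose, among them Mxd1 (log2 fold change 2.55, adjusted p = 0.0182), and 1 fell. Of all transcripts tested 12.8% rose and 10.8% fell in the footprints. Single genes of the network thus changed in both directions.

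Genes of DNA replication and mitosis moved with the ribosome biogenesis genes. All 16 proliferation genes tested fell in RNA-seq, with a median log2 fold change of -2.47, and their sum was 940 and 1110 FPKM in OPCs and 234 and 242 in oligodendrocytes. Tyms (-4.22, adjusted p = 0.00271), Mcm3 (-3.25, 0.00119) and Bub1 (-2.998, 0.00271) were the lowest. The part of cell division in the values of the ribosome biogenesis genes was not tested.

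Several of the genes carry snoRNAs, the guides of the particles described above, in their introns. By the annotation 7 of the 56 genes (12.5%) hold a snoRNA on their own strand, against 169 of all 10987 listed transcripts (1.54%). Nop56 holds 5, Nop58 4, Ncl and Wdr43 3 each, Tsr1 2, and Dkc1 and Nop53 1 each. Thus 6 of the 7 hosts fell in RNA-seq, the exception being Nop53. Of all 56 genes 33 (58.9%) fell, and of all transcripts tested 20.2%. The snoRNAs themselves were not measured in these libraries.

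Promoter sequences were compared as well, since 33 of the 34 genes that passed in RNA-seq moved one way. RefSeq start sites on GRCm38.p6 were matched for 47 of the 56 genes, with windows from 250 bases before to 50 bases after the start, 56 windows in all. The E-box CACGTG, the sequence that Myc and related factors bind, was present in 23.2% of these windows, in 11 genes, against 9.21% of 11305 windows of all listed genes and 7.15% of 32851 windows in the RefSeq table. The ETS-type motif CCGGAAG, searched on both strands as were all, was in 28.6% of the windows against 15.2% of those of listed genes. CCAAT was in 30.4% against 38.2% and TATAAA in 7.14% against 7.72%. Windows of one gene can overlap, and a match says nothing on binding.

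Of the 11 genes with an E-box, 5 fell in RNA-seq (Nol11, Nop2, Utp18, Tsr1 and Wdr43), 1 rose (Utp14b) and 5 did not pass the threshold (Imp4, Rrp7a, Utp25, Pes1 and Tsr2). The share that fell was 58.9% over the 56 genes and 20.2% over all transcripts tested. The windows below are those of the 7 genes whose motif lies ahead of a RefSeq start. They are shown because they place the shared motif, in capitals, at different distances from that start. Of these 7 genes 3 fell, 1 rose and 3 did not pass. For Utp14b that RefSeq start and the window lie inside the listed transcript, chr1:78658038-78671512, not at its beginning. For Utp25 the distance holds for a single annotated start, and from other starts the motif lies 23 and 42 bases after them.
Nol11, chr11:107189392-107189451, minus strand, motif 43 bases before the start: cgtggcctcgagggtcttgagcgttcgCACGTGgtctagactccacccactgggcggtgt
Nop2, chr6:125131796-125131855, plus strand, 60 bases before: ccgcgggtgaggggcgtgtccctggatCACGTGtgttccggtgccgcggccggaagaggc
Utp18, chr11:93885754-93885813, minus strand, 20 bases before: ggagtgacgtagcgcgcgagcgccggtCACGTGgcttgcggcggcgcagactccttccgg
Utp14b, chr1:78658350-78658409, plus strand, 63 bases before: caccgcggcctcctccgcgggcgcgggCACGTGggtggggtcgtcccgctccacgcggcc
Imp4, chr1:34439681-34439740, plus strand, 121 bases before: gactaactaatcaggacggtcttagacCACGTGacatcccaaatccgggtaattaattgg
Rrp7a, chr15:83122977-83123036, minus strand, 208 bases before: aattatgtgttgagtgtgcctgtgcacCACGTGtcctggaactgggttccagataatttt
Utp25, chr1:193130196-193130233, minus strand, 245 bases before: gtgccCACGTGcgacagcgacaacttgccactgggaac

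The study concerned decoding of lysine and phenylalanine codons in oligodendrocytes, so the codons of the genes were counted. Lysine codons made up a median of 8.33% of their codons, against 5.53% over all listed transcripts, and 25 of the 56 genes lay above the 90th percentile of all, 9.27%. Utp11 was highest at 16.2% and Nop9 lowest at 2.83%. Of the lysine codons a median of 38.5% were AAA rather than AAG, against 36.8% over all transcripts, so the genes were rich in lysine but near the rest in the choice of codon. Among phenylalanine codons TTT made up a median of 50.0% against 42.9%.

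The stretches of 30 codons with the most lysine codons show where the residues gather, with AAA in capitals. Nop56, Nop58 and Dkc1 carry theirs near the end of the protein, Ncl near its start, and Bms1 at the very start.
Nop56, codons 476 to 505 of 580: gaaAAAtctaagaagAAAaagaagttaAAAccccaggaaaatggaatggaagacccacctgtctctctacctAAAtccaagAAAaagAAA
Nop58, codons 438 to 467 of 536: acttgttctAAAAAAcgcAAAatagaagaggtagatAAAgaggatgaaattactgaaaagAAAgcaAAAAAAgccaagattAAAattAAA
Dkc1, codons 467 to 496 of 509: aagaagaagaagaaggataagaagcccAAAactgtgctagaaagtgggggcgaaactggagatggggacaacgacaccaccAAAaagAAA
Ncl, codons 51 to 80 of 707: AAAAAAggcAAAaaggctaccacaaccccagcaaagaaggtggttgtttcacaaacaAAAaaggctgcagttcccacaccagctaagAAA
Bms1, codons 1 to 30 of 1284: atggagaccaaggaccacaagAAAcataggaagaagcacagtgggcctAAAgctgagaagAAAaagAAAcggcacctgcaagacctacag
Nop58 has 9 AAA among 11 lysine codons in its stretch, Nop56 6 among 12 and Dkc1 3 among 11. Over the 53 genes above 0 in all libraries, Spearman's rho with the RNA-seq log2 fold change was -0.11 for the AAA share and 0.01 for the lysine content, given as a description across genes, which are not independent replicates. For the TTT share rho was -0.02. Over all transcripts tested the values were -0.06, -0.12 and -0.08 in the same order. The study related codons to mRNA half-life, whereas these values concern the change in RNA level.

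**Figure D5:**
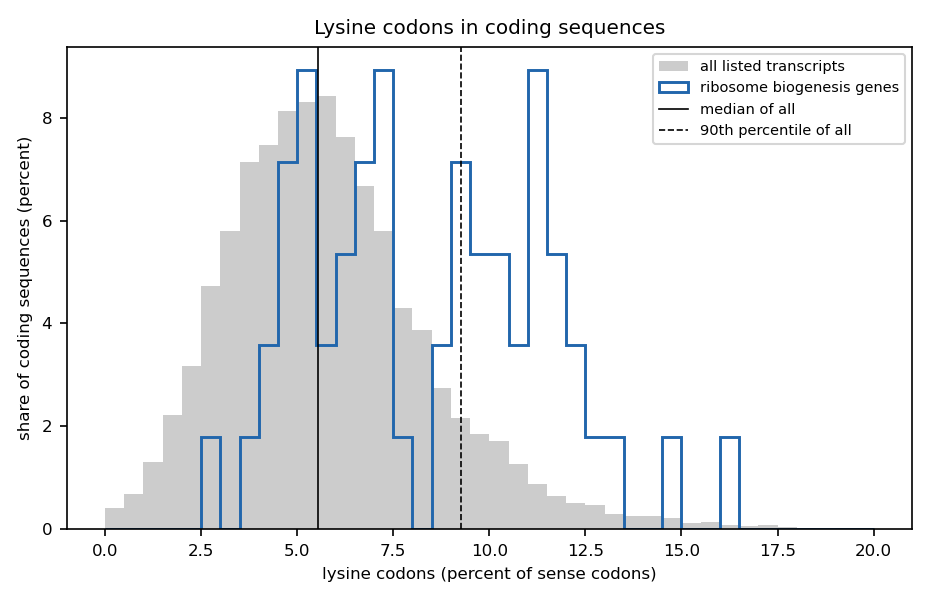
Share of coding sequences (vertical axis, percent) by lysine codon content (horizontal axis, percent of sense codons) for all listed transcripts (grey) and the 56 genes (blue outline). The lines mark the median, 5.53%, and the 90th percentile, 9.27%, of all transcripts, and 25 of the 56 genes lie to the right of the second line.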

How the data were processed

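Ribosome footprints and total RNA of 2 OPC and 2 oligodendrocyte cultures were measured. The authors trimmed reads (18 bases or longer kept), aligned them to GRCm38 (mm10) with HISAT2 2.1.0 and deposited FPKM values from StringTie 1.3.5 per coding sequence (footprints) or canonical transcript (RNA). Values were used as deposited, without counts. A transcript was tested where its mean over the libraries reached 1 FPKM, on log2(FPKM + 0.1), so changes of low genes are understated, with limma 3.58.1 (R 4.3.3; empirical Bayes with trend, Benjamini-Hochberg over all transcripts tested): RNA-seq and footprints over 4 libraries each, ribosome density as an interaction over 8. p-values measure the spread between 2 cultures. The statistics were tested on simulated data with independent noise, alike in all libraries of a kind. That simulation did not cover the pairing of cultures or the lower depth of oligodendrocyte replicate 2. Transcripts (10987 of 10987) were placed by identifier in Gencode vM21.

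Pairing follows the study's methods, by which oligodendrocytes were differentiated from the same OPC cultures. That cultures of the same number share an origin was assumed. Deviations of same-numbered libraries correlated with Pearson's r = 0.108 (RNA-seq) and 0.0860 (footprints). The replicate block was an alternative. The genes and lists were chosen with earlier results of these data known. Values per library were given for the polymerase, box C/D, box H/ACA and PeBoW proteins, Ncl and Npm1, genes that moved against the majority, the 5 lowest and 5 highest RNA-seq changes, genes listed at 0, and up to 3 genes per further list; others were summarised or named afterwards. Mycn, Rrn3 and Mki67 were not analysed here.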

Additional observations from a re-analysis of the deposited data

How the results depend on the processing

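Alternatives tried were pseudocounts of 1 and 0.01, no filter, a mean of at least 5 FPKM, median-ratio scaling, no trend, the replicate block, density per culture, and leaving out each culture. With all cultures kept, between 26 and 36 genes fell in RNA-seq and between 8 and 22 in the footprints, and 25 of the 34 RNA-seq calls and 7 of the 22 footprint calls held in all 8 settings. No called gene changed direction. Median-ratio scaling moved the RNA-seq median of all transcripts by 0.18 and that of density by -0.16 on the log2 scale. With it the RNA-seq median of the 56 genes was -0.90. Utp14b was the gene that rose; without a trend 0 rose in either measure, and 0 rose once genes overlapping another gene were left out, a choice made after seeing the data. With a mean of at least 5 FPKM 2 rose in the footprints. Without a trend 8 fell in the footprints, with 1036 transcripts past the threshold in all. Leaving out a culture leaves one library in a group, which is assumed to vary like the other group: 1 to 31 genes fell and 0 to 1 rose in RNA-seq (364 to 2599 transcripts in all), 0 to 30 fell and 0 to 1 rose in the footprints (0 to 3442), and 0 to 5 were lower and 0 to 2 higher in density (0 to 883). Density calls over all transcripts were 3 with a pseudocount of 0.01 or median-ratio scaling, 14 without a trend, and 0 with the replicate block or per culture. The block lifted Rrp36 past the RNA-seq threshold (adjusted p = 0.0383) and Wdr43 past the footprint threshold (0.0376), and took the footprints of Nol11 (0.0769), Utp14a (0.0625), Utp3 (0.0505) and Utp23 (0.0767) under it; the other calls it changed among the 56 genes, and its counts for the further lists, stand in the text, and with it 5 rather than 4 OPC markers rose in RNA-seq. Depth limits the values of oligodendrocyte replicate 2 most. The cause of these differences was not tested.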
